A study of Mus musculus with 4 samples.

Results

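The genes of the matrix metalloproteinases (Mmp), the membrane-anchored Adam proteases, the secreted Adamts proteases, the Adamts-like (Adamtsl) glycoproteins and the tissue inhibitors of metalloproteinases (Timp) were followed in RNA sequencing of mouse lung myofibroblasts labelled as conditional knockout or wild type for Dnmt1, the maintenance DNA methyltransferase. Members were taken by symbol, as every row of the count table whose name is one of these stems followed by a number and at most 1 letter, and 72 of the 31247 genes in the table matched. They comprised 21 Mmp, 4 Timp, 24 Adam, 18 Adamts and 5 Adamtsl genes, and 12 of the 24 Adam genes, known from testis or epididymis, were set apart. The Dnmt1 conditional knockout (CKO) cells carry Dnmt1-D/D together with Tbx4-rtTA and a Tet-O-Cre, beside the PDGFRb-GFP reporter, and the wild-type (WT) cells are labelled with that reporter alone. The reporter is heterozygous in both groups, and cells positive for it were sorted from collagenase- and dispase-digested lungs on postnatal day 7. The Tbx4-rtTA driver, with a Tet-O-Cre, limits Cre to the cells that express Tbx4, a gene of lung mesenchyme, and only while its inducer is given. The sources used here do not give the inducer or its timing, and the label of the WT cells lists neither rtTA nor Cre. Each group has 2 libraries, named here CKO A, CKO B, WT A and WT B by a letter that carries no pairing. The labels speak of 2 lungs of each genotype without saying whether the animals shared a litter, so the p-values cover variation among these 4 libraries and no more.

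Most of these proteins act outside the cell. Secreted Mmps are made as inactive precursors and, once activated, cut collagens, elastin and other matrix proteins, while membrane-type Mmps do so at the cell surface. Mmp14 at the surface activates Mmp2 with Timp2 as an adaptor. Timps bind the catalytic site of Mmps and, in the case of Timp3, of several Adam and Adamts enzymes. Somatic Adams such as Adam10 and Adam17 release the outer parts of growth factors, cytokines and receptors, and many testis Adams take part in sperm maturation and sperm-egg recognition. Adamts enzymes trim procollagens and cleave large proteoglycans, and several of them, with the Adamtsl proteins that lack a protease domain, bind fibrillin microfibrils. In the lung after birth, matrix turnover accompanies the formation of alveolar septa, in which myofibroblasts deposit elastin.

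The libraries held between 23071657 and 26420648 counted reads, and reads on the 72 members made up 0.808% and 0.866% in CKO A and CKO B, against 0.905% and 0.878% in WT A and WT B. The number of genes with any read was 22237 in CKO A and 22532 in CKO B, against 21883 in WT A and 27643 in WT B, and WT B alone had reads on 71 of the 72 members. CKO A, CKO B and WT B carry the same leading number in their column names, and WT A another, of unstated meaning. Y-linked reads were found in CKO A, which held 2494 reads of Ddx3y, and not in the other libraries, which held 0. Dnmt1, the targeted gene, stood at 78.1 and 29.5 CPM (reads scaled to the library total, with edgeR normalization factors) in CKO A and CKO B, against 144 and 115 CPM in WT A and WT B. Its log2 change of -1.27 ± 0.57 (SE, n = 2 per genotype) did not pass in edgeR's quasi-likelihood test (adjusted p = 0.310). The log2 change was -2.11 without CKO A and -0.72 without CKO B. A fit with 1 library left in a group takes its variation from the other group alone. The gap between CKO A and CKO B does not enter such a fit, so a call gained there is not counted as support. The authors' deposited table lists Dnmt1 as lower in the mutant, at a log2 change of -1.23 and an adjusted p of 0.0290. Counts are summed over the gene, so that exons outside a deletion still count. Of 10 markers of the sorted mesenchyme all were read in every library. Among them Pdgfrb, whose reporter was sorted on, stood at 374 and 317 CPM in CKO libraries and 507 and 477 CPM in WT libraries (adjusted p = 0.0546). Of the 10 markers, 1, Wnt5a, passed the threshold, lower in CKO, against 2.75% of all tested genes. Fewer cells of a type and less RNA per cell cannot be told apart in such bulk samples.

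A small set of members carried most of the signal. Per length, as RPKM (CPM divided by the exon length in kilobases), the highest levels over the 4 libraries were those of Mmp2 (gelatinase A, mean 308 RPKM), Timp2 (277 RPKM) and Mmp14 (membrane-type Mmp, 189 RPKM). Below these, Adamts1, Adamts2 and Adamts10 stood in opposite order in the genotypes. In CKO libraries Adamts1 averaged 109 RPKM, Adamts2 89.9 and Adamts10 63.5 RPKM, while in WT libraries Adamts10 averaged 148 RPKM, Adamts2 95.7 and Adamts1 60.7 RPKM. Mmp2 stood at 280 and 332 RPKM in CKO libraries, against 348 and 274 RPKM in WT libraries, and Timp2 at 286 and 280 RPKM, against 288 and 255 RPKM. Mmp14 stood at 193 and 209 RPKM in CKO libraries, against 198 and 157 RPKM in WT libraries. The groups overlapped for each of the 3 genes. Mmp2 and Mmp14 together made up 86.4% and 87.3% of the summed RPKM of all Mmp genes in CKO A and CKO B, and 89.4% and 86.6% in WT A and WT B. At the other end 18 members had too few reads to be tested, with at most 15 reads over the 4 libraries, and 5 of these were seen by 1 read, each time in WT B.

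**Figure D1:**
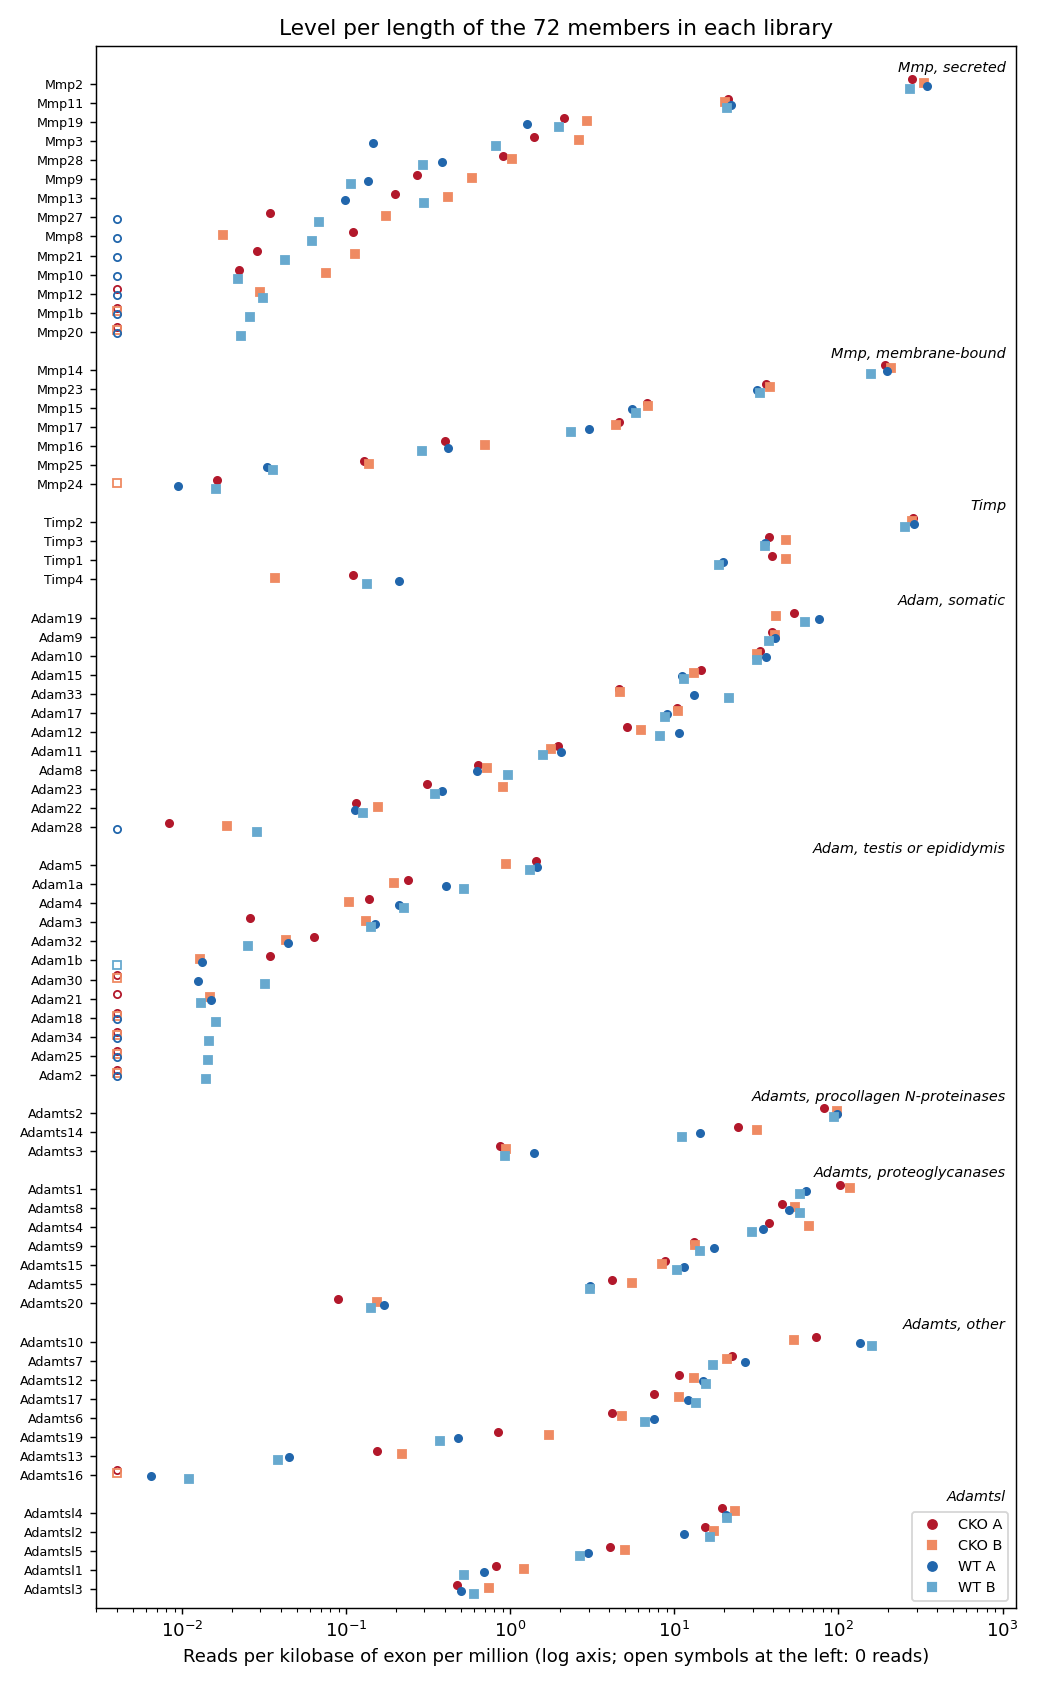
Level per length of all 72 members in each library, in RPKM on a log axis, grouped by family and role. Red and orange symbols are the CKO libraries, dark and light blue symbols the WT libraries, and open symbols at the left edge mark 0 reads. Mmp2, Timp2 and Mmp14 lie furthest to the right, while most testis Adam genes lie near 0 reads in every library.

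Of the 54 members tested, 11 changed in CKO (20.4%, against 7.61% of all 15210 genes tested, edgeR's quasi-likelihood test, adjusted p under 0.05). The 7 higher members were Timp1, Adamts14, Adamts1, Adamts5, Adamtsl5, Mmp17 and Mmp28 (background 4.85%), and the 4 lower ones Adam33, Adamts10, Adamts6 and Adam12 (background 2.75%). The median log2 change of the 54 was 0.10, beside -0.01 over all tested genes. CKO and WT libraries did not overlap for 33 of the 54, where the share over all tested genes was 57.1%. Leaving out WT A left 6 called members (background 3.64%), all among the 11, and leaving out WT B left 5 (background 2.14%), 4 of them among the 11. Omitting CKO A gave 15 (background 11.3%), of which 9 were among the 11, and omitting CKO B gave 9 (background 6.42%), of which 7 were. With RLE factors the count was 11 (background 6.85%), with library size alone 12 (8.47%), with a floor of 1 on the mean CPM 10 (6.84%) and with no filter 19 (7.87%). Limma-voom called 10 (background 6.25%), DESeq2 15 (10.5%), and an adjusted p under 0.01 in edgeR left 1 (1.58%). The comparison within the shared column number is the one without WT A. Timp1 and Adamts10 were called under each of these 4 omissions. The authors' deposited table lists 12 members at an adjusted p under 0.05 (4.30% of all genes in it), 8 higher and 4 lower in the mutant, and they include the same 11 genes.

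**Figure D2:**
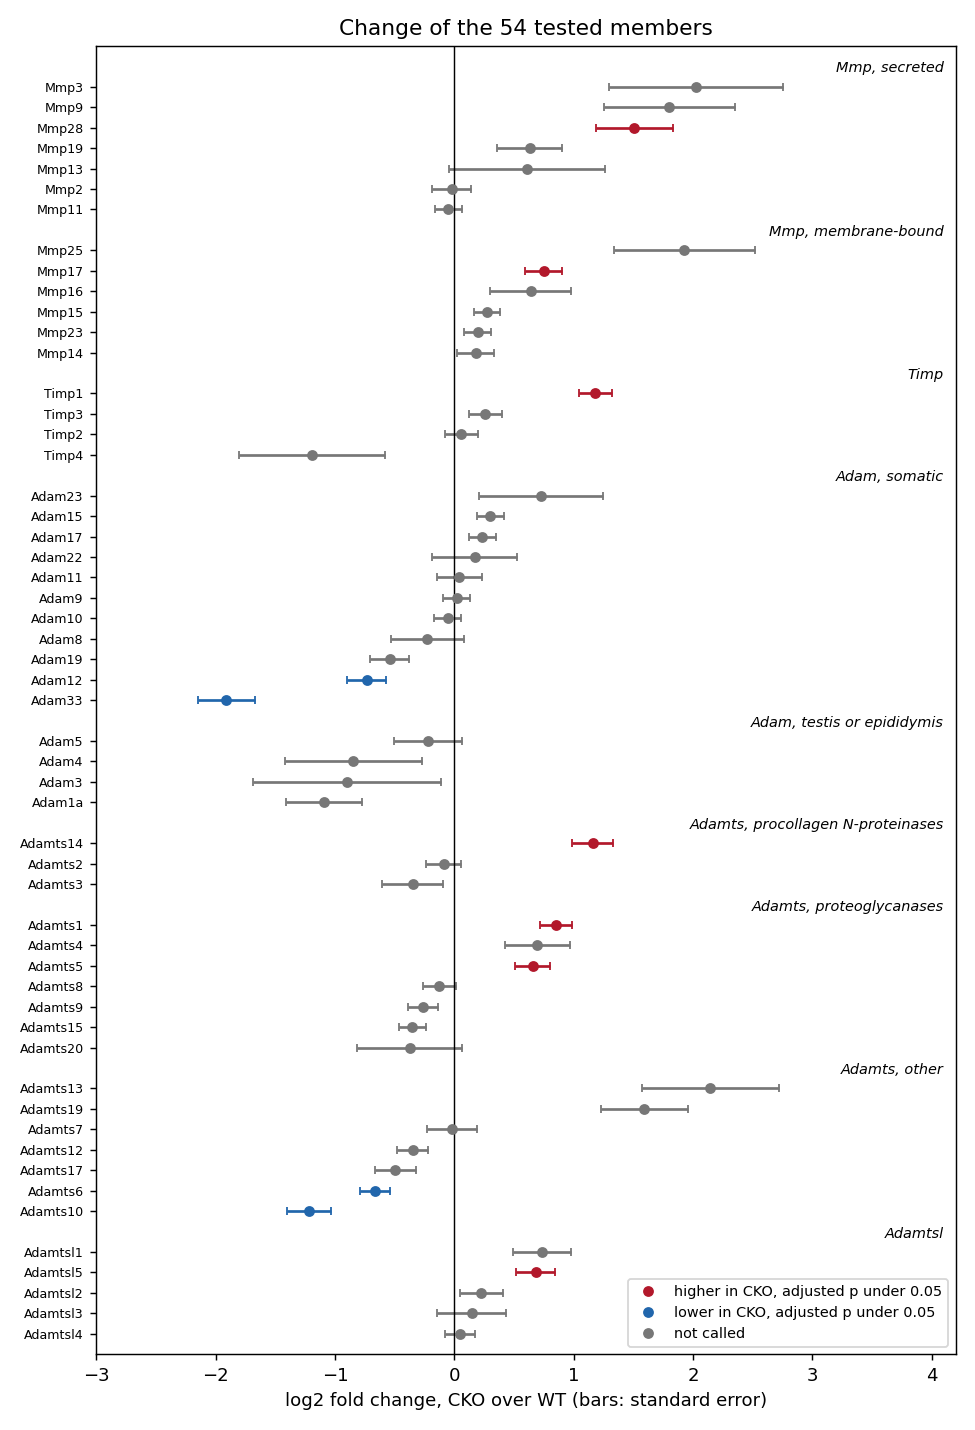
Log2 fold change, CKO over WT, of the 54 tested members by family and role, with standard errors as bars (n = 2 libraries per genotype). Red points (7) were higher and blue points (4) lower in CKO at an adjusted p under 0.05, and grey points did not pass.

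Among the 4 inhibitors Timp1 was higher in CKO, and the other 3 did not pass, where 7.61% of all tested genes were called. Timp1, a secreted inhibitor that binds proMmp9 among others (chromosome X, 20870166 to 20874735, GRCm38), stood at 34.9 and 42.6 CPM in CKO A and CKO B, against 17.5 and 16.6 CPM in WT A and WT B. Each CKO library was above each WT library by far more than the gap within a genotype. Its log2 change was 1.18 ± 0.14 (SE, n = 2 per genotype), 2.27-fold, with an edgeR adjusted p of 0.00441, the lowest among the members. The adjusted p stayed between 5.7e-05 and 0.0325 with each library left out. Timp1 lies on the X chromosome, and of the 4 libraries CKO A alone held Y-linked reads. Xist, the RNA that coats the inactive X chromosome, stood at 164 CPM in CKO A and 1081 in CKO B, against 849 and 671 in WT A and WT B, and the part of sex in the Timp1 value was not tested.

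Timp3, the matrix-bound inhibitor, stood at 309 and 388 CPM in CKO libraries and 291 and 291 CPM in WT libraries (log2 change 0.26 ± 0.14, adjusted p = 0.285). Timp2 stood at 1113 and 1091 CPM in CKO libraries and 1124 and 993 CPM in WT libraries, with overlapping groups (log2 change 0.06 ± 0.14, adjusted p = 0.830). Timp4 was close to the limit of detection, with 17 and 5 reads in CKO libraries and 28 and 21 reads in WT libraries (adjusted p = 0.268). Timp1 made up 10.8% and 12.8% of the summed RPKM of the 4 inhibitors in CKO A and CKO B, against 5.73% and 6.05% in WT A and WT B. The ratio of summed Timp RPKM to summed Mmp RPKM was 0.664 and 0.606 in CKO libraries and 0.564 and 0.622 in WT libraries, and these ranges overlapped. Timp1 lies in an intron of the synapsin gene Syn1, and Timp3 and Timp4 share exon bases with Syn3 and Syn2, in each case on the opposite strand. Syn1, the host of Timp1, had 110 and 69 reads in CKO libraries, against 60 and 81 in WT libraries, which is few beside the 918 and 988 Timp1 reads in CKO libraries and 399 and 441 in WT libraries. Syn3 shares 21.3% of the Timp3 exon bases and had at most 55 reads in a library. Syn2 shares 1.53% of the Timp4 exon bases and had 241 and 153 reads in CKO libraries, against 208 and 393 in WT libraries, more than Timp4 in every library, so the count of Timp4 is uncertain. The sources used here do not say whether counting used strand, so reads from overlapping genes of opposite strands cannot be told apart.

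The promoter windows of Timp1 and of the other called members show how far CpG content differed within the family. A window spans 250 bases before to 50 bases after the RefSeq start on GRCm38.p6, and Dnmt1 copies methylation at CpG dinucleotides. The Timp1 window is shown with its 8 CpGs in capitals (chrX:20869916-20870215, plus strand).
Timp1: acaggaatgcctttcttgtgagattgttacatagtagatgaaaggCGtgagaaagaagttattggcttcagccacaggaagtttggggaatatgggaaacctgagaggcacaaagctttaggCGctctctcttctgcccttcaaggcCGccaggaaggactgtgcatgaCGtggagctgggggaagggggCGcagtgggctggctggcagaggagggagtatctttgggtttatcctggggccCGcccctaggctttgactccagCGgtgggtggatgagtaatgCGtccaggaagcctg

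Of 21 Mmp genes, 13 were tested, 2 were higher in CKO and 0 were lower, against 4.85% and 2.75% of all tested genes. In this list 11 of the 13 log2 changes lay above 0, with a median of 0.63, beside -0.01 over all tested genes. The tested members are those with enough reads, and a gene low in WT could pass the read filter through its CKO reads alone. Mmp17 (chromosome 5, 129584169 to 129611099), a membrane-type Mmp held by a lipid anchor, stood at 30.6 and 29.0 CPM in CKO A and CKO B, against 19.9 and 15.6 CPM in WT A and WT B. The groups were apart, at a log2 change of 0.75 ± 0.15 (SE, n = 2 per genotype, edgeR adjusted p = 0.0268). Without WT B the log2 change was 0.59 and the call was lost (adjusted p = 0.201). Mmp28 (chromosome 11, 83440768 to 83463071), a secreted Mmp also called epilysin, had 92 and 92 reads in CKO libraries and 34 and 30 in WT libraries. In CPM these were 3.50 and 3.97 in CKO libraries, against 1.49 and 1.13 in WT libraries, a log2 change of 1.51 ± 0.32 (adjusted p = 0.0317). The call of Mmp28 was lost without WT A (adjusted p = 0.0692), without WT B (0.187) and without CKO B (0.0639), with log2 changes of 1.33 to 1.73. An opposite-strand gene, 1700020L24Rik, shares 12% of its exon bases and had at most 18 reads in a library.

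The remaining membrane-type Mmps did not pass. Mmp14 stood at 1149 and 1246 CPM in CKO libraries and 1178 and 938 CPM in WT libraries (log2 change 0.18 ± 0.16, adjusted p = 0.524). Mmp15 and Mmp23 were slightly above WT in each CKO library, Mmp15 at 36.8 and 37.3 CPM against 29.7 and 31.5 CPM (adjusted p = 0.170). Mmp23 stood at 84.2 and 90.1 CPM in CKO libraries and 74.4 and 77.9 CPM in WT libraries (adjusted p = 0.321). Among the secreted Mmps, Mmp2 had a log2 change of -0.02 ± 0.17 (adjusted p = 0.949), and Mmp11, stromelysin 3, stood at 59.2 and 56.5 CPM in CKO libraries and 61.5 and 58.2 CPM in WT libraries (adjusted p = 0.824). Mmp19 stood at 7.54 and 10.4 CPM in CKO libraries and 4.48 and 7.02 CPM in WT libraries (adjusted p = 0.195). The opposite-strand gene Tmem198b, with 195 to 303 reads per library, shares 22.3% of the Mmp19 exon bases, so the count of Mmp19 is uncertain.

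Inducible and leukocyte-linked Mmps were scarce in every library. Mmp9, gelatinase B, had 25 and 48 reads in CKO libraries and 11 and 10 in WT libraries (log2 change 1.80 ± 0.55, adjusted p = 0.0875). Its log2 change was 2.29 without CKO A and 1.15 without CKO B. Mmp25, a lipid-anchored Mmp of neutrophils, had 18 and 17 reads in CKO libraries and 4 and 5 in WT libraries (adjusted p = 0.0888), and passed the read filter through its CKO reads alone. Mmp8, neutrophil collagenase, and Mmp12, macrophage elastase, were not tested, with 12 and 11 reads in all. Of 10 tested macrophage and monocyte markers 3 were higher in CKO, Fcer1g, Cd14 and Csf1r, and 0 lower. The shares over all tested genes were 4.85% and 2.75%. Each of the 3 markers missed the threshold without WT A and without WT B, at log2 changes of 1.08 to 1.97. The 12 markers of that list in the table summed to 60.9 and 39.0 CPM in CKO libraries and 28.4 and 38.8 CPM in WT libraries. The 8 neutrophil markers in the table summed to 1.45 and 1.47 CPM in CKO libraries and 1.01 and 2.23 CPM in WT libraries, with Mpo at 0 reads in CKO A, WT A and WT B and Retnlg at 0 in CKO A, CKO B and WT A. Their part in the Mmp9 and Mmp25 values was not tested.

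A row of 8 Mmp genes on chromosome 9, Mmp13, Mmp12, Mmp1b, Mmp3, Mmp10, Mmp8, Mmp27 and Mmp20, was nearly silent. Together they had 90 and 154 reads in CKO A and CKO B, against 12 and 78 in WT A and WT B, and Mmp3 gave 66.2% of them. Mmp3, stromelysin 1, had 66 and 110 reads in CKO libraries and 6 and 39 in WT libraries, or 2.51 and 4.75 CPM against 0.263 and 1.47 CPM. The groups did not overlap, but WT A and WT B were themselves far apart, and Mmp3 did not pass (log2 change 2.03 ± 0.73, adjusted p = 0.159). Without WT B its log2 change was 3.77, and without WT A it was 1.31. On all 4 libraries Mmp3 was called higher by DESeq2 and not called by limma-voom. Mmp13, collagenase 3, had 14 and 26 reads in CKO libraries and 6 and 21 in WT libraries, with overlapping groups (adjusted p = 0.609). Without Mmp3 the row summed to 0.914 and 1.90 CPM in CKO libraries and 0.263 and 1.47 CPM in WT libraries, and the groups overlapped.

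The promoter windows of this row held few CpGs, and most held a match of TGANTCA, a pattern that includes the AP-1 motif known from inducible Mmp genes. TGANTCA reads the same on both strands and allows any base in the middle, so it is wider than the AP-1 motif (TGACTCA or TGAGTCA). It was found in 5 of the 8 windows (Mmp13, Mmp1b, Mmp3, Mmp10 and Mmp20), against 7.81% of all 32851 windows of the table, and the 8 windows held 0 to 4 CpGs, beside a median of 7 over all windows. Those of Mmp3 (chr9:7445572-7445871, plus strand) and Mmp13 (chr9:7272264-7272563, plus strand) are shown with the motif in capitals, which begins 46 and 35 bases before the start.
Mmp3: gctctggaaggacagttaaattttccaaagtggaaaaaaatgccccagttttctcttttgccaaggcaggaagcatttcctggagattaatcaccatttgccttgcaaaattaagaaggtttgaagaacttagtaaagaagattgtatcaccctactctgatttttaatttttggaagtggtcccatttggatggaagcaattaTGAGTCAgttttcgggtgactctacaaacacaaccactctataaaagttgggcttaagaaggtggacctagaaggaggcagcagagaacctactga
Mmp13: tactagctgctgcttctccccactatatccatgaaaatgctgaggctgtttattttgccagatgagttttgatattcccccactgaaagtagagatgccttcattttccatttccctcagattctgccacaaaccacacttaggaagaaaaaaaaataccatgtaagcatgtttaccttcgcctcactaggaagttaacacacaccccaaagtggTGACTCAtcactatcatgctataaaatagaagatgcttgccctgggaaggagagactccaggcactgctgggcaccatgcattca

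Of the 12 somatic Adam genes, 11 were tested, 2 were lower in CKO and 0 higher, against 2.75% and 4.85% of all tested genes. Adam33 (chromosome 2, 131050591 to 131063814), a membrane metalloprotease of mesenchymal cells that has been linked to asthma in humans, stood at 24.7 and 25.0 CPM in CKO A and CKO B, against 70.8 and 116 CPM in WT A and WT B. The CKO libraries were nearly equal and the WT libraries were spread, at a log2 change of -1.91 ± 0.24 (SE, n = 2 per genotype), 3.76-fold lower (edgeR adjusted p = 0.0111). The call was lost without CKO A (log2 change -1.87, adjusted p = 0.210) and without CKO B (log2 change -1.91, adjusted p = 0.166). Adam12 (chromosome 7, 133883199 to 134232146), a protease of mesenchymal progenitors known to cleave Igf-binding proteins, stood at 54 and 65.9 CPM in CKO libraries, against 113 and 86.8 CPM in WT libraries. It was 1.66-fold lower (log2 change -0.73 ± 0.16, adjusted p = 0.0361), and the call was lost without WT A (log2 change -0.52, adjusted p = 0.158) and without CKO A (log2 change -0.57, adjusted p = 0.0844). WT A was also the library with the most cartilage RNA. The 9 chondrocyte markers in the table summed to 44.0 and 57.3 CPM in CKO libraries and 350 and 74.8 CPM in WT A and WT B, and their part in the Adam12 value was not tested.

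Adam19, the most abundant Adam gene here, stood at 382 and 296 CPM in CKO libraries and 542 and 446 CPM in WT libraries, and did not pass (log2 change -0.54 ± 0.16, adjusted p = 0.0861). The log2 change was -0.71 without CKO A and -0.36 without CKO B. On all 4 libraries Adam19 was called lower by DESeq2 (adjusted p = 0.0225) and not by limma-voom (0.0848). The main sheddases showed little difference. Adam10 stood at 164 and 158 CPM in CKO libraries and 178 and 156 CPM in WT libraries (log2 change -0.06 ± 0.12, adjusted p = 0.807). Adam17, which releases Tnf from the membrane, stood at 74.3 and 75.6 CPM in CKO libraries and 64.7 and 62.6 CPM in WT libraries (log2 change 0.24 ± 0.11, adjusted p = 0.226). Adam9 stood at 162 and 169 CPM in CKO libraries and 170 and 156 CPM in WT libraries (adjusted p = 0.935). Adam15 stood at 89.5 and 81.0 CPM in CKO libraries and 68.1 and 70.2 CPM in WT libraries (adjusted p = 0.149). Adam23, which lacks protease activity, had 146 and 374 reads in CKO A and CKO B, against 156 and 165 in WT A and WT B. CKO B alone stood apart (adjusted p = 0.462), and the log2 change was 1.33 without CKO A and -0.22 without CKO B.

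**Figure D3:**
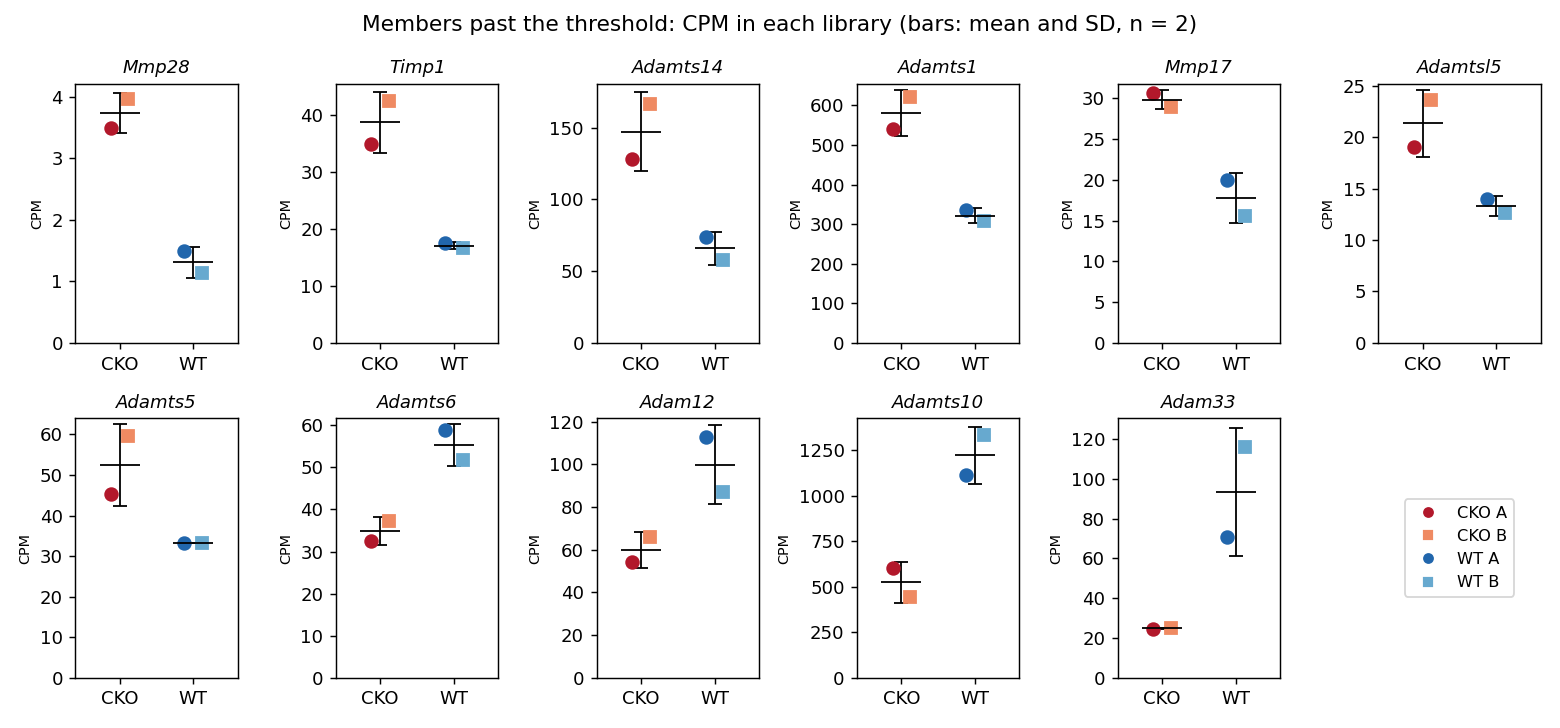
CPM of the 11 called members in each library, on axes that start at 0, with CKO left of WT. Points are single libraries and the bars give the mean and SD (n = 2). The 7 genes from Mmp28 to Adamts5 were higher in CKO and the 4 genes from Adamts6 to Adam33 lower. The groups do not overlap in any of the 11 panels, as for 57.1% of all tested genes. These genes were picked by their calls, so the separation adds no support to the calls.

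None of the testis or epididymis Adam genes tested was called higher in CKO, where the share over all tested genes was 4.85%. With 4 genes tested, a count of 0 cannot tell the list from that share. The list named 21 genes, and those beyond the 12 had no row in the table, which lists genes with at least 1 read. The 12 genes of this list together had 184 and 122 reads in CKO A and CKO B, against 201 and 249 in WT A and WT B, and 4 of them had enough reads for a test. Of those 4, 0 passed in edgeR, by DESeq2 or by limma-voom, and 1, Adam1a, had an unadjusted p under 0.05. Adam1a, an alpha subunit of fertilin, had 47 and 34 reads in CKO libraries and 69 and 104 in WT libraries (log2 change -1.09 ± 0.32, adjusted p = 0.0799). The protein-coding gene Mapkapk5 and a predicted gene share 24.0% and 63.7% of the Adam1a exon bases on the same strand, so its count is uncertain. Adam5, the best-read gene of the list, had 118 and 68 reads in CKO libraries and 104 and 109 in WT libraries (adjusted p = 0.679). Adam4 had 9 and 6 reads in CKO libraries and 12 and 15 in WT libraries (adjusted p = 0.402), and Adam3, cyritestin, had 2 and 9 against 10 and 11 (adjusted p = 0.522). With CKO reads below the minimum count of 10, Adam4 and Adam3 passed the read filter through their WT reads alone. A call higher in CKO was therefore unlikely for them. Adam32 had 5 and 3 reads in CKO libraries and 3 and 2 in WT libraries.

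Adam2, Adam18, Adam25 and Adam34 had 0 reads in either CKO library and 1 read in WT B. Adam30 had 0 reads in CKO libraries and 1 and 3 in WT libraries. A count of 0 allows up to 3 reads per library, or 0.114 CPM in CKO A and 0.129 CPM in CKO B, for counting error only. Adam18, Adam3, Adam5 and Adam32 lie in a row on chromosome 8 at lower coordinates than the somatic gene Adam9. All are on the minus strand, so the row lies downstream of Adam9, and the gap between Adam32 and Adam9 is 806 bases. Adam9 had 4243 and 3908 reads in CKO libraries and 3871 and 4130 in WT libraries, beside at most 118 reads for any gene of the row in a library. Promoter windows that start within 500 bases of the annotated gene start were at hand for 3 of the 12 genes, and held 0 to 2 CpGs. That of Adam25 (chr8:40751958-40752257, plus strand) is shown with its 1 CpG in capitals, for contrast with the CpG-rich windows of Adamts14 and Adamts1, and its TGANTCA match is left in lower case.
Adam25: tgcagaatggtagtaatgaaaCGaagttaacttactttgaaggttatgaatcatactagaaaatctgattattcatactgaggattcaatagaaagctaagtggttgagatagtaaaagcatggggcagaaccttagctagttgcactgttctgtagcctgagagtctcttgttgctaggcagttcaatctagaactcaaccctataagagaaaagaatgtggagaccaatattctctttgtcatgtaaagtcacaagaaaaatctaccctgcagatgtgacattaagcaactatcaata

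The Adamts genes moved in both directions, with 3 of 17 tested members higher and 2 lower in CKO. Over all tested genes 4.85% were higher and 2.75% lower. Among the 3 procollagen N-proteinases, which remove the amino-terminal propeptide of fibrillar collagens, Adamts14 was higher and the more abundant Adamts2 was not called. Adamts14 (chromosome 10, 61197112 to 61273438) stood at 128 and 167 CPM in CKO A and CKO B, against 74.0 and 57.7 CPM in WT A and WT B. The groups were clearly apart, at a log2 change of 1.16 ± 0.17 (SE, n = 2 per genotype), 2.24-fold (edgeR adjusted p = 0.0115). Without WT B the log2 change was 1.00 and the adjusted p was 0.0513. Adamts2 stood at 762 and 916 CPM in CKO libraries and 916 and 871 CPM in WT libraries (log2 change -0.09 ± 0.14, adjusted p = 0.743). Per length Adamts14 reached 24.6 and 32.1 RPKM in CKO libraries, against 14.2 and 11.1 RPKM in WT libraries, while Adamts2 stood at 81.6 and 98.2 RPKM in CKO libraries and 98.1 and 93.3 RPKM in WT libraries. Adamts3 was low at 4.72 and 5.13 CPM in CKO libraries and 7.55 and 5.02 CPM in WT libraries (adjusted p = 0.443). The Adamts14 window (chr10:61273370-61273669, minus strand) is shown with its 44 CpGs in capitals, the most among the called members with a window.
Adamts14: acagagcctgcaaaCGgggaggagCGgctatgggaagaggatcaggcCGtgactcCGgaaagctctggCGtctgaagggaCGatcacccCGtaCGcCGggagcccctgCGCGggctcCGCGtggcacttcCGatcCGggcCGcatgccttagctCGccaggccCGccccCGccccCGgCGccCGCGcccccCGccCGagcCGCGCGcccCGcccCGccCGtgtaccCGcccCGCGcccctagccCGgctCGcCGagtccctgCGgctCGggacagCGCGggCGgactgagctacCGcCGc

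Of the 7 proteoglycanases, enzymes that cleave versican and aggrecan, Adamts1 and Adamts5 were higher in CKO and 0 were lower. The shares over all tested genes were 4.85% and 2.75%. Adamts1 (chromosome 16, 85793827 to 85803113) stood at 540 and 621 CPM in CKO libraries, against 335 and 309 CPM in WT libraries. The log2 change was 0.85 ± 0.13, 1.81-fold (edgeR adjusted p = 0.0106), and the call was lost without WT B (log2 change 0.80, adjusted p = 0.0819). Adamts5 (chromosome 16, 85856173 to 85901828), an aggrecanase that lies 53059 bases from Adamts1 on the same strand, stood at 45.2 and 59.5 CPM in CKO libraries, against 33.2 and 33.2 CPM in WT libraries. The WT libraries were nearly equal and the CKO libraries were spread, at a log2 change of 0.66 ± 0.15 (adjusted p = 0.0361). Its call was lost without WT A (adjusted p = 0.130), without WT B (0.178) and without CKO B (log2 change 0.46, adjusted p = 0.0523). The Adamts1 window (chr16:85803064-85803363, minus strand) is shown with its 18 CpGs in capitals.
Adamts1: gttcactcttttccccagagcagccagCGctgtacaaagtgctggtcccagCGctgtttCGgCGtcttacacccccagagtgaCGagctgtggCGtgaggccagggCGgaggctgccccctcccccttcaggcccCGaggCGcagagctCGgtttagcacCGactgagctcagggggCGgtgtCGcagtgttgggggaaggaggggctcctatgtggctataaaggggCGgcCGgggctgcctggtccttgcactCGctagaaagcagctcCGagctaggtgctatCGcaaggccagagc

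Adamts4, a further aggrecanase, stood at 182 and 316 CPM in CKO A and CKO B, against 166 and 142 CPM in WT A and WT B. CKO A lay close to WT, and Adamts4 did not pass (log2 change 0.70 ± 0.27, adjusted p = 0.197). The log2 change was 1.07 without CKO A and 0.26 without CKO B. On all 4 libraries Adamts4 was called higher by DESeq2 (adjusted p = 0.0307) and not by limma-voom (0.218). Adamts8 and Adamts15, which lie 20109 bases apart on chromosome 9, were not called. Adamts8 stood at 209 and 251 CPM in CKO libraries and 232 and 270 CPM in WT libraries (adjusted p = 0.617), and Adamts15 at 90.9 and 86.6 CPM against 119 and 108 CPM (adjusted p = 0.0994). Adamts9 stood at 198 and 201 CPM in CKO libraries and 262 and 216 CPM in WT libraries (adjusted p = 0.239). Versican (Vcan), a main substrate, stood at 473 and 749 CPM in CKO libraries and 611 and 384 CPM in WT libraries (adjusted p = 0.615), and aggrecan (Acan) at 2.13 and 5.39 CPM against 35.7 and 6.0 CPM (adjusted p = 0.400). Of 14 immediate early and dissociation response genes, 5 were higher in CKO (Ier3, Klf4, Atf3, Klf2 and Nr4a1, against 4.85% of all genes), 0 were lower and 9 did not pass. Their summed level was 4626 and 6390 CPM in CKO libraries and 4512 and 3694 CPM in WT libraries, and their part in the Adamts1, Adamts4 and Adamts5 values was not tested.

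Adamts10 and Adamts6, a closely related pair that binds fibrillin microfibrils, were both lower in CKO. Adamts10 (chromosome 17, 33524204 to 33553782) stood at 604 and 444 CPM in CKO A and CKO B, against 1111 and 1330 CPM in WT A and WT B. The gap between the groups was wider than the spread in either, at a log2 change of -1.22 ± 0.18 (SE, n = 2 per genotype), 2.33-fold lower (edgeR adjusted p = 0.0101). The adjusted p stayed between 0.000283 and 0.0443 with each library left out. Adamts6 (chromosome 13, 104287835 to 104496695) stood at 32.5 and 37.2 CPM in CKO libraries, against 58.8 and 51.9 CPM in WT libraries (log2 change -0.67 ± 0.13, adjusted p = 0.0209). Its call was lost without WT A (log2 change -0.56, adjusted p = 0.144) and without WT B (log2 change -0.75, adjusted p = 0.0737). Adamts17, also a fibrillin-binding protease, stood at 58.6 and 83.0 CPM in CKO libraries and 94.6 and 105 CPM in WT libraries. It did not pass (log2 change -0.50 ± 0.17, adjusted p = 0.126). Its log2 change shrank to -0.24 with CKO A left out and was -0.76 with CKO B left out. The fibrillin genes themselves were not called. Fbn1 stood at 2400 and 3206 CPM in CKO libraries and 3304 and 2533 CPM in WT libraries (adjusted p = 0.892), and Fbn2 at 480 and 584 CPM against 603 and 319 CPM (adjusted p = 0.745).

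Other Adamts genes were not called by edgeR on all 4 libraries. Adamts7 stood at 140 and 131 CPM in CKO libraries and 168 and 107 CPM in WT libraries (adjusted p = 0.960), and Adamts12 at 116 and 144 CPM against 162 and 169 CPM (adjusted p = 0.149). Adamts19 stood at 11.9 and 24.2 CPM in CKO A and CKO B, against 6.72 and 5.24 CPM in WT A and WT B. Its log2 change of 1.59 ± 0.36 missed the threshold in the comparison of all 4 libraries (adjusted p = 0.0603), and it was called both without CKO A (adjusted p = 5.75e-05) and without CKO B (log2 change 1.00, adjusted p = 0.0334), where a single CKO library is assumed to vary like the WT libraries. It was also called by DESeq2 (adjusted p = 0.000178), with library size alone (0.0465) and with no filter (2.12e-13), and not by limma-voom (0.113). The authors' deposited table gives Adamts19 an adjusted p of 0.000428, and it is the member called there and not by edgeR on all 4 libraries here. Adamts13, which cleaves von Willebrand factor, had 20 and 25 reads in CKO libraries and 5 and 5 in WT libraries (log2 change 2.15 ± 0.58, adjusted p = 0.0628). With WT reads below the minimum count of 10, Adamts13 passed the read filter through its CKO reads alone.

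Of the 5 Adamtsl genes, 1, Adamtsl5, was higher in CKO and 0 were lower, against 4.85% and 2.75% of all tested genes. Adamtsl5 (chromosome 10, 80339110 to 80348412), which binds fibrillins, stood at 19 and 23.6 CPM in CKO libraries, against 14 and 12.6 CPM in WT libraries (log2 change 0.68 ± 0.16, edgeR adjusted p = 0.0436). This was the called member nearest to the threshold, and it was kept only without CKO A among the omissions of a library, with an adjusted p of 0.116 without WT A, 0.249 without WT B and 0.0993 without CKO B. The adjusted p was 0.0521 by limma-voom and 0.0508 with a floor of 1 on the mean CPM. Adamtsl4 stood at 81.5 and 98.3 CPM in CKO libraries and 86.5 and 87.5 CPM in WT libraries (adjusted p = 0.856). Adamtsl2, which binds fibrillin and latent Tgf-beta binding proteins, stood at 124 and 139 CPM in CKO libraries and 92.0 and 132 CPM in WT libraries (adjusted p = 0.480). Adamtsl1 stood at 10.4 and 15.4 CPM in CKO libraries and 8.78 and 6.71 CPM in WT libraries (adjusted p = 0.105). Its log2 change was 1.02 without CKO A and 0.44 without CKO B.

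**Figure D4:**
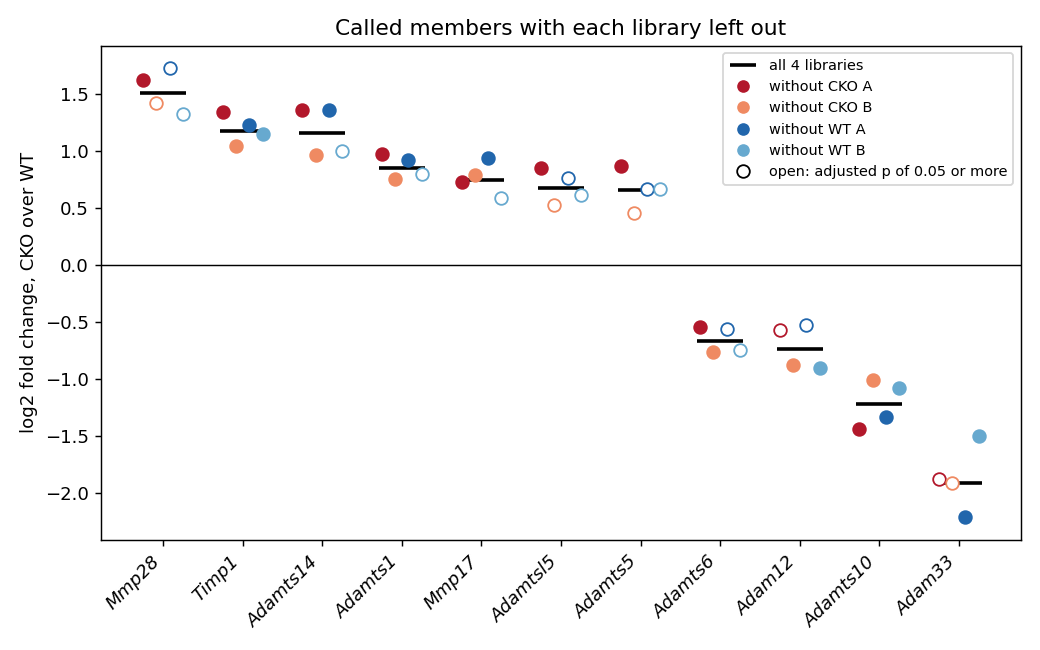
Log2 fold change, CKO over WT, of the 11 called members with all 4 libraries (black bars) and with each library left out (points coloured by the omitted library). Filled points kept an adjusted p under 0.05 and open points did not. Every point lies on the same side of 0 as its bar, and Timp1 and Adamts10 have filled points only.

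CpG content was low in the chromosome 9 row and the testis list and varied among the other members. Windows whose RefSeq start lay within 500 bases of the annotated gene start were found for 41 of the 72 members. Those of the 30 members outside the chromosome 9 row and the testis list held a median of 21 CpGs, from 2 to 46, and 1 of them, that of Adam19, held TGANTCA. In the testis list 2 of the 3 windows held it, those of Adam1b and Adam25, so the pattern was not limited to the chromosome 9 row. The Adam25 match reads TGAATCA, which is not the AP-1 motif. The windows of the 5 higher members that have one (Adamts14, Adamtsl5, Mmp28, Adamts1 and Timp1) held 8 to 44 CpGs and 0 matches of TGANTCA, while the 25 members that were tested and not called held 1 to 46 CpGs. The ranges overlapped, and no window was at hand for the 4 lower members. Expression was measured here, not methylation, so these counts describe sequence only.

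**Figure D5:**
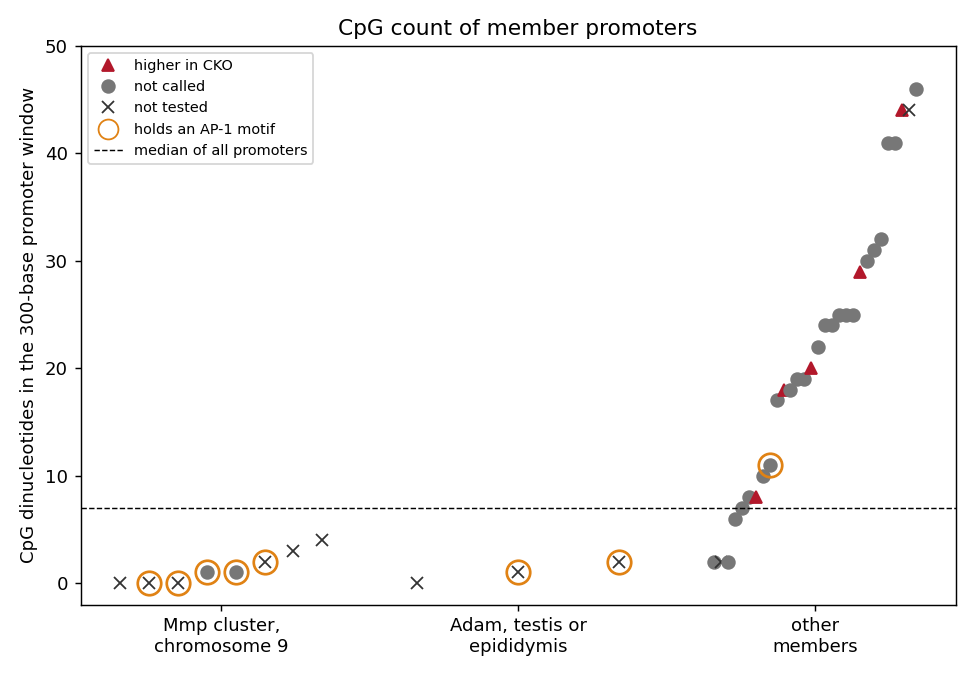
Number of CpG dinucleotides in the 300-base promoter window of 41 members, by set, with the members of each set spread along the horizontal axis in rising order. Triangles were higher in CKO, circles were not called, crosses were not tested and the dashed line is the median of all windows in the table (7). Orange rings, named AP-1 motif in the legend, mark windows with a match of TGANTCA, a pattern wider than that motif. The chromosome 9 row (0 to 4) and the testis or epididymis Adam genes (0 to 2) lie below the line, and the 5 triangles lie above it.

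Genes that work with these proteases were followed in a list of 65 activators, inhibitors, partners and substrates. Of these 53 were tested, 6 were higher and 1 was lower in CKO (13.2%, against 7.61% of all genes). Limma-voom called 3 of the 53, where the share over all tested genes was 6.25%. Leaving out any of the 4 libraries leaves 1 in its group, so the counts of calls from those fits are not set against these shares. Under these omissions Tnf and Cx3cl1 kept their calls, at log2 changes of 3.21 to 3.94 and 1.90 to 2.37. The other 5 were lost without WT A (adjusted p of 0.105 to 0.269) and without WT B (0.0873 to 0.202), Pcsk5 also without CKO A (0.0655) and CKO B (0.105), and Hbegf also without CKO B. Plau, the urokinase that makes plasmin, an activator of proMmps, stood at 10.7 and 8.76 CPM in CKO libraries, against 4.21 and 4.90 CPM in WT libraries (log2 change 1.09 ± 0.21, edgeR adjusted p = 0.0220). Its receptor Plaur stood at 34.6 and 33.9 CPM in CKO libraries, against 22 and 25.2 CPM in WT libraries (adjusted p = 0.0412). Pcsk5, a proprotein convertase, was the lower gene, at 148 and 144 CPM in CKO libraries and 206 and 192 CPM in WT libraries (adjusted p = 0.0449). Furin, the convertase of membrane-type Mmps and Adams, stood at 245 and 274 CPM in CKO libraries and 268 and 225 CPM in WT libraries (adjusted p = 0.769). The surface inhibitor Reck stood at 166 and 153 CPM in CKO libraries and 200 and 169 CPM in WT libraries (adjusted p = 0.329).

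Around Adam17, Rhbdf2 (iRhom2), which escorts it to the cell surface, was higher at 21.5 and 36.1 CPM in CKO libraries, against 12.9 and 11.8 CPM in WT libraries (log2 change 1.22 ± 0.25, adjusted p = 0.0371). Of 15 tested sheddase substrates 3 were higher and 0 lower, against 4.85% and 2.75% of all tested genes. Tnf had 99 and 52 reads in CKO A and CKO B, against 5 and 7 in WT A and WT B (log2 change 3.61 ± 0.48, adjusted p = 0.00680). Its WT reads lay below the minimum count of 10, so Tnf passed the read filter through its CKO reads alone. Cx3cl1, a membrane-bound chemokine, stood at 5.21 and 7.12 CPM in CKO libraries, against 1.40 and 1.40 CPM in WT libraries (adjusted p = 0.00702). Hbegf, a growth factor released by Adams, stood at 9.52 and 13.7 CPM in CKO libraries, against 5.88 and 6.41 CPM in WT libraries (adjusted p = 0.0460). Tnf is also a gene of macrophages, whose markers are given above with Mmp9, and their part in the Tnf value was not tested. Of the 11 tested matrix substrates, 0 passed in edgeR, against 7.61% of all tested genes. In this list 1 had an unadjusted p under 0.05, DESeq2 called 1 higher and limma-voom called 0. Col1a1, the substrate chain of Adamts2 and Adamts14, stood at 12351 and 19362 CPM in CKO A and CKO B, against 11376 and 9880 CPM in WT A and WT B (adjusted p = 0.193), and is the gene that DESeq2 called.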

How the data were processed

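Raw counts of reads on each gene were deposited for the 4 libraries, with a log2 fold change, a p-value, an adjusted p-value and a gene length per gene, per the file headers. Per the submitters' processing notes, which give no order or role, the tools were edgeR 3.28.1, STAR, Trimmomatic 0.36, cutadapt 2.5 and FastQC 0.11.8, and the build GRCm38.p6. The counting tool is not given in the sources used here. The 4 further columns of per-sample values were not used. Columns headed Mutant were taken as CKO and those headed Control as WT. The table lists genes with at least 1 read.

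CKO was compared with WT on all genes in R 4.3.3 with edgeR 4.0.16 (filterByExpr with a minimum count of 10, TMM, glmQLFit with robust estimation, glmQLFTest), with Benjamini-Hochberg adjustment over 15210 tested genes, a threshold of 0.05 and a biological coefficient of variation of 0.160. Standard errors were derived from the log2 change and the F statistic. On simulated counts for these 15210 genes the fit called 52 of 100 genes changed 2-fold, 92 of 100 changed 4-fold and 1 of 15010 unchanged ones. The simulation gave every gene the same coefficient of variation, that of 0.160. Its rates therefore do not carry over to genes whose replicates differed more. 1 read corresponded to 0.0377 to 0.0439 CPM. RPKM values divide CPM by the merged exon length of GENCODE M21, which holds all 72 members. The deposited gene length was a median of 1.70 times (up to 5.16 times) that length for members, so it was not used. Coordinates are those of M21, and promoters those of RefSeq on GRCm38.p6 (45 of 72 members). The replicate libraries differed by more than sampling noise (chi-square per degree of freedom 34.8 for CKO and 19.8 for WT).

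Named members are all called genes, all Timps, the 4 highest of each list per length, testis Adams with at least 10 reads and called partner genes. Further genes were named after their values were seen, among them Adam17, Adamts15, Adamts13, Adamts19, Mmp9, Mmp25, Mmp8, Mmp12, Mmp13 and Adam23, the genes of the testis list with fewer reads, and the partner genes that did not pass. The members, lists and rules were chosen with earlier results of these data known. Alternatives were DESeq2 1.42.0, limma-voom (limma 3.58.1), RLE factors, library size alone, no filter, an adjusted p under 0.01, a floor of 1 on the mean CPM and omission of each library.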

Additional observations from a re-analysis of the deposited data

How the results depend on the processing

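Over all genes 1157 were called, and the count was 2459 with no filter on low counts, 241 at an adjusted p under 0.01 and between 339 and 1842 with a library left out. For the members the count of 11 became 19 with no filter, 1 (Timp1) at an adjusted p under 0.01 and between 5 and 15 with a library left out, and it was between 10 and 15 with RLE factors, library size alone, a mean CPM of at least 1, limma-voom and DESeq2. For the partner genes the count of 7 of 53 became 16 of 65 with no filter, where 7.87% of all genes were called. It was 3 of 53 with limma-voom (background 6.25%), 11 of 53 with DESeq2 (10.5%) and 2 of 53 at an adjusted p under 0.01 (1.58%). With limma-voom the partner genes were thus near the share over all genes. The log2 change of Dnmt1 ran from -2.11 without CKO A to -0.72 without CKO B, and Dnmt1 did not pass under the settings that kept both CKO libraries. The cause of these shifts was not tested, except that a stricter threshold calls fewer genes. For the 54 tested members taken singly, 490 refits gave the same call, 20 lost a call, 22 gained one and none turned a called direction round. The summed level of the chromosome 9 Mmp row without Mmp3 was added after the data had been seen. No paired analysis was possible because the count columns carry no replicate number. The planned search for a catalytic motif in member proteins was not run. Depth limits the 18 untested members, where a count of 0 allows up to 3 reads.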
